A study of Mus musculus with 6 samples.

Results

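The endothelial transcription factors described here are 10 genes: the SOXF genes Sox7, Sox17 and Sox18, the ETS genes Erg, Fli1 and Ets1, Tal1 and Gata2, and the Krüppel-like factors Klf2 and Klf4. They were chosen by name, as the probe set of an Affymetrix array annotated with that gene symbol alone, and all 10 were found among 19938 genes tested, with 1 probe set each. Levels were measured on 6 arrays of total RNA from mouse lung endothelial cells (lECs) of C57BL/6 background. On 3 arrays the cells had been stably transfected with mouse full-length L1CAM in the vector pcDNA3.1/Hygro(-), and on 3 control arrays with the same vector empty. L1CAM is a cell adhesion molecule best known from neurons. All cultures were grown for 4 days to confluence on crosslinked gelatin with 20% serum, heparin and endothelial growth supplement. The labels call the replicates independent experiments. Their descriptions carry 1 cell code per group and do not say whether those cells were a clone or a pool. The p-values therefore measure the spread between cultures, and whether that spread includes separate transfections is not known.

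These factors bind DNA and together maintain the gene expression of endothelial cells. ETS proteins bind a GGAA core found in the enhancers of most endothelial genes, and SOXF proteins, which bind through an HMG box, act in arterial identity and Notch signalling. TAL1, a basic helix-loop-helix protein, and GATA2, a zinc finger protein, work in one complex in blood and endothelial cells. KLF2 and KLF4 are induced by laminar flow through the MEKK3, MEK5 and ERK5 kinases and MEF2 proteins, and they promote a quiescent, anti-thrombotic endothelium.

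Of the 10 factors, Sox17, Klf4 and Tal1 rose in L1CAM cells and Fli1 and Gata2 fell, while Sox7, Sox18, Erg, Ets1 and Klf2 did not pass the test. Sox17 was 2.12-fold higher, Klf4 1.72-fold higher and Fli1 1.43-fold lower. The changes of Tal1 (1.14-fold) and Gata2 (1.18-fold) were small. A call means a limma p-value, adjusted over all genes tested, under 0.05. Among all genes 6.85% were called higher and 8.19% lower, 15.0% in all, against 3 and 2 of these 10. That share includes many dim genes, whereas all 10 factors lay above the array median. With dim probe sets filtered out, 3421 of 11409 genes were called, a larger share, and again 3 and 2 of the factors. The 15.0% therefore overstates how far the factors stand out from genes of similar level. Shares and medians over all genes given below include dim genes too. The 3 rises and 2 falls became 4 and 4 without L1CAM replicate 1, 1 and 0 without control replicate 2 or 3, 2 and 1 without control replicate 1 or L1CAM replicate 2, and 2 and 0 without L1CAM replicate 3. Calls over all 19938 genes moved the same way. They went from 2999 to 4952 without L1CAM replicate 1, and to between 1033 and 1809 without any other single array. The arrays of both groups did not overlap for 7 of the 10, 4 with the L1CAM arrays above and 3 below, against 34.6% of all genes (18.6% above and 16.0% below). The median difference of the 10 was 0.02 on the log2 scale, as it was over all genes (0.02). Their median absolute difference was 0.21, against 0.10 over all genes. In RNA of whole cultures, fewer cells expressing a gene and less RNA per cell cannot be told apart.

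The labels were checked on L1cam, which rose from 6.86 ± 0.41 to 10.60 ± 0.12 (log2, SD, n = 3 arrays per group, limma adjusted p = 0.000112). All 21 pan-endothelial markers examined lay above the array median (6.55 to 6.58, log2) in their mean over the arrays, as did all 10 factors in both groups. Cdh5, VE-cadherin, read 13.02 to 13.13 and Pecam1 12.56 to 12.67 over the 6 arrays. Vwf (6.82 to 6.88) and Cldn5 (6.79 to 7.13) lay only a little above the array median. Of the markers of other cells, 5 of 15 fibroblast and mural genes, 2 of 11 epithelial genes and 3 of 10 leukocyte genes lay above that median. Ptprc, the common leukocyte antigen, read 4.56 to 4.86 and Epcam 5.10 to 5.24, near the lower quartile of the arrays (5.01 to 5.04). Cd68, best known from macrophages, was high, with means of 12.23 in control and 12.07 in L1CAM cells. Lyz2, also on the leukocyte list, read 7.11 to 8.56, and Col1a1, on the fibroblast and mural list, 7.61 to 7.69. The mean of the pan-endothelial list was 11.49 to 11.53 on the control and 11.32 to 11.37 on the L1CAM arrays, with 2 genes higher and 4 lower. These counts were 0 and 0 without control replicate 2 and 1 and 1 without control replicate 3. They were 1 and 2 without control replicate 1 or L1CAM replicate 2 or 3, and 2 and 5 without L1CAM replicate 1. The ordinary linear model gave 0 and 1, the replicate block 1 and 3, and array weights 2 and 6. The median difference of the list was -0.07. All L1CAM arrays lay below all control arrays for Cdh5, Pecam1, Tek, Tie1, Eng and other markers, and above them for Robo4 and Nos3. Over all genes these shares were 16.0% below and 18.6% above. List means were 6.01 to 6.03 and 5.97 to 6.07 for fibroblast and mural genes, 5.92 to 5.96 and 5.91 to 6.01 for epithelial genes, and 6.25 to 6.38 and 6.21 to 6.35 for leukocyte genes. For 6 lymphatic genes, among them Prox1 (-0.15) and Flt4 (0.10), they were 6.85 to 6.98 in both groups. Lyve1, also on the lymphatic list, was high, at 11.49 to 12.13 in control and 11.56 to 12.33 in L1CAM cells. No gene of these 4 lists was called by limma or by the ordinary linear model, and 1 fibroblast and mural gene had an unadjusted p under 0.05. Within both groups the arrays correlated across genes at 0.998 or above, except for L1CAM replicate 1, which correlated with the other L1CAM arrays at 0.995. Genes are not independent replicates in such a correlation. That array also stood apart in proliferation genes, whose list mean was 10.59 there against 9.34 and 9.42 in L1CAM replicates 2 and 3 and 10.73 to 11.08 in the control arrays. Of 9 such genes 8 fell, among them Bub1, Aurkb, Ccna2 and Mki67, 9 without that array and 0 without any other single array.

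**Figure D1:**
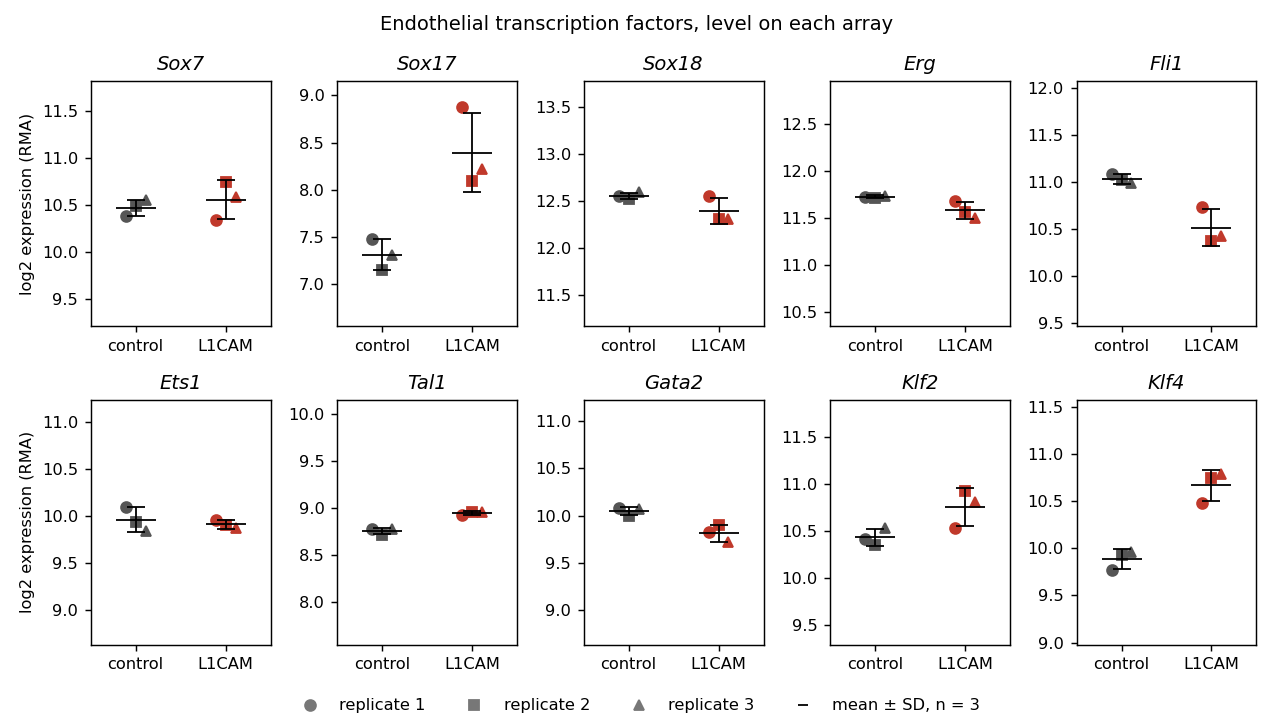
Level of each of the 10 factors on each array (log2 expression after RMA, vertical axes of equal span but different position), with control arrays in grey and L1CAM arrays in red, marker shapes for replicates 1 to 3, and black bars for the mean ± SD (n = 3). The L1CAM arrays lie above all control arrays for Sox17, Tal1, Klf2 and Klf4 and below them for Erg, Fli1 and Gata2, and the groups overlap for Sox7, Sox18 and Ets1.

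Of the 3 SOXF genes Sox17 rose, and Sox7 and Sox18 did not pass the test. Sox17, the member most closely tied to arterial endothelium, read 7.48, 7.15 and 7.31 on control replicates 1, 2 and 3 and 8.87, 8.09 and 8.21 on L1CAM replicates 1, 2 and 3. Every L1CAM array lay above every control array, and L1CAM replicate 1 was the highest by a wide margin. The mean rose from 7.31 ± 0.16 to 8.39 ± 0.42 (log2, SD, n = 3 arrays each), a difference of 1.08 (SE 0.19, limma adjusted p = 0.0113). Of all genes, 1.53% had a larger absolute difference. The call was lost without control replicate 2 (adjusted p = 0.0575) or control replicate 3 (0.0545), while the difference stayed between 0.84 and 1.23 whichever array was left out.

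Sox18, a factor of vessel and lymphatic development, read 12.55, 12.53 and 12.59 in control cells and 12.55, 12.31 and 12.31 in L1CAM cells. L1CAM replicate 1 lay among the control arrays and the other L1CAM arrays below them. The difference was -0.16 (95% interval -0.34 to 0.01, adjusted p = 0.209). It was -0.25 when L1CAM replicate 1 was dropped, which passed (adjusted p = 0.0145). Sox7 read 10.38, 10.49 and 10.55 in control cells and 10.34, 10.75 and 10.59 in L1CAM cells, so the groups overlapped. Its difference of 0.085 had an interval of -0.16 to 0.33 (adjusted p = 0.653), and it turned to -0.0088 without L1CAM replicate 2.

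Whether factors of a family changed unequally was tested on the difference between them on each array, over 8 pairs. With 3 arrays against 3 the exact two-sided permutation test cannot go below p = 0.10, so no pair could pass. Sox17 minus Sox7 was 0.998 higher in L1CAM cells, and Sox18 minus Sox17 changed by -1.25 (log2), with no overlap between groups (exact p = 0.10, adjusted 0.133 for each). Sox18 minus Sox7 changed by -0.25 with overlapping groups (exact p = 0.40, adjusted 0.40). These figures compare changes, since levels read by different probe sets cannot be set against each other.

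**Figure D2:**
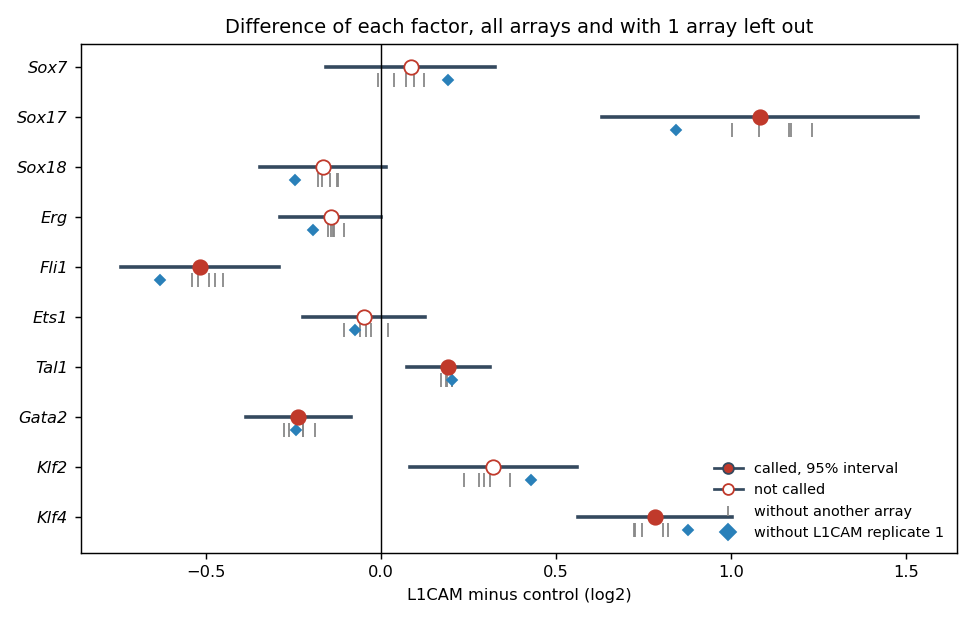
Difference of each factor, L1CAM minus control (log2, horizontal axis), with its 95% interval from limma (bar). Filled circles passed the test and open circles did not. Ticks and blue diamonds below each bar give the difference with 1 array left out, which runs from 0.84 to 1.23 for Sox17, from -0.63 to -0.45 for Fli1 and from 0.72 to 0.88 for Klf4.

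Among the ETS factors Fli1 fell, and Erg and Ets1 did not pass. FLI1 and ERG are close relatives that occupy many of the same endothelial enhancers. Fli1 read 11.08, 11.02 and 10.98 on the control arrays and 10.74, 10.38 and 10.42 on the L1CAM arrays. All L1CAM arrays lay below all control arrays, with L1CAM replicate 1 nearest to them. The mean fell by 0.52 on the log2 scale (SE 0.10, adjusted p = 0.0132), from 11.03 ± 0.05 to 10.51 ± 0.20 (SD, n = 3 arrays each). This call was lost without control replicate 2 (adjusted p = 0.0588), control replicate 3 (0.0530) or L1CAM replicate 3 (0.0571). Without L1CAM replicate 1 the difference was -0.63 (adjusted p = 0.000184).

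Erg, required for vessel stability and Cdh5 expression, read 11.73, 11.71 and 11.74 in control cells and 11.68, 11.56 and 11.50 in L1CAM cells. The groups did not overlap, yet the difference was only -0.14 (SE 0.06) and did not pass (adjusted p = 0.173). Without L1CAM replicate 1 it was -0.19 and passed (adjusted p = 0.0386). Ets1, an ETS factor of angiogenic endothelium, read 10.10, 9.93 and 9.84 in control cells and 9.96, 9.90 and 9.87 in L1CAM cells. Those arrays overlapped fully, with a difference of -0.05 (95% interval -0.22 to 0.13, adjusted p = 0.732). The sign turned without control replicate 1 (0.022). Fli1 minus Erg changed by -0.37 and Ets1 minus Fli1 by 0.47, with no overlap between groups (exact p = 0.10, adjusted 0.133 for each). Ets1 minus Erg changed by 0.10 with overlap (exact p = 0.40).

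Tal1 and Gata2, partners in one complex, moved in opposite directions by small amounts. Tal1 read 8.78, 8.72 and 8.78 in control cells and 8.93, 8.96 and 8.96 in L1CAM cells. The L1CAM arrays differed among themselves by 0.03 and all lay above the control arrays. Tal1 rose by 0.19 (SE 0.05, adjusted p = 0.0436). Gata2 read 10.08, 9.997 and 10.07 in control cells and 9.83, 9.90 and 9.72 in L1CAM cells, with every L1CAM array below every control array. It fell by 0.24 (SE 0.06, adjusted p = 0.0471). Each of these calls was lost when any array other than L1CAM replicate 1 was left out, with adjusted p of up to 0.156 for Tal1 and 0.154 for Gata2. Gata2 minus Tal1 changed by -0.43, without overlap (exact p = 0.10, adjusted 0.133).

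RefSeq promoters (GRCm38.p6) matched 5 of the 10 factors, Erg, Tal1, Gata2, Klf2 and Klf4, with 9 start sites in all. The 250 bases before each start were searched on both strands for 6 motifs that these factors or their known regulators can bind. The ETS motif searched was CCGGAA. The GATA motif was AGATAA and the KLF motif CACCC. For SOX proteins it was AACAAT, for the E-box of TAL1 the letters CAGATG, and for MEF2 proteins CTANNNNTAG. Of 32851 such windows, 12.0% held the ETS letters, 9.99% the GATA letters, 52.0% the KLF letters, 9.42% the SOX letters, 14.4% the E-box and 3.20% the MEF2 letters. Shown for the opposed pair are the upstream Tal1 start, on the plus strand at chr4:115056176-115056425, and the downstream Gata2 start, on the plus strand at chr6:88198414-88198663. The capitals mark matches, which do not overlap one another.
Tal1: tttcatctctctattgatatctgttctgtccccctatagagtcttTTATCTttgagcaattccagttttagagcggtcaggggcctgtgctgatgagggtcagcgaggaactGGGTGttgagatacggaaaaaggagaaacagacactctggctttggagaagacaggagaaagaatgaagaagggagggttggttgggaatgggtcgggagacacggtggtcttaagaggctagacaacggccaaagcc
Gata2: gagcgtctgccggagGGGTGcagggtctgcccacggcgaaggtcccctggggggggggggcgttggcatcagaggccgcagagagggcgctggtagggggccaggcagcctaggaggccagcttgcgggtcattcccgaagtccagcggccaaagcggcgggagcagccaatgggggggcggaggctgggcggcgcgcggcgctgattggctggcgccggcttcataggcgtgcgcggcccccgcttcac
The Tal1 window held 1 GATA match and 1 KLF match, both on the minus strand, and the Gata2 window 1 KLF match. The upstream Gata2 start and the downstream Tal1 start held 0 matches. Of the 3 Erg windows, 1 held a GATA, a KLF and a SOX match, 1 a KLF match and 1 none. A match describes letters and is not a measured site, and one probe set cannot tell the starts of a gene apart.

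Klf4 had the smallest p-value of the 10 factors. It read 9.77, 9.93 and 9.96 on the control arrays and 10.48, 10.75 and 10.78 on the L1CAM arrays. The lowest L1CAM array lay well above the highest control array. Klf4 rose from 9.89 ± 0.10 to 10.67 ± 0.16 (log2, SD, n = 3 arrays each), by 0.78 (SE 0.09, adjusted p = 0.00270). Its call held in each of the 6 fits with 1 array left out, with differences of 0.72 to 0.88 and adjusted p of at most 0.0170. It was lost with the ordinary linear model (adjusted p = 0.0578). Klf2, its close relative, read 10.42, 10.35 and 10.53 in control cells and 10.54, 10.92 and 10.81 in L1CAM cells. The L1CAM arrays lay above the controls, but L1CAM replicate 1 and control replicate 3 were almost level. The Klf2 difference of 0.32 (SE 0.10) did not pass (adjusted p = 0.0775), and was 0.43 without L1CAM replicate 1 (adjusted p = 0.00351). Klf4 minus Klf2 changed by 0.46, with no overlap between groups (exact p = 0.10, adjusted 0.133).

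The promoters of this pair are shown because both genes have a single start in the table and are known to respond to the same flow pathway. Klf2 lies on the plus strand at chr8:72318812-72319061 and Klf4 on the minus strand at chr4:55532476-55532725 (GRCm38.p6), with matches in capitals.
Klf2: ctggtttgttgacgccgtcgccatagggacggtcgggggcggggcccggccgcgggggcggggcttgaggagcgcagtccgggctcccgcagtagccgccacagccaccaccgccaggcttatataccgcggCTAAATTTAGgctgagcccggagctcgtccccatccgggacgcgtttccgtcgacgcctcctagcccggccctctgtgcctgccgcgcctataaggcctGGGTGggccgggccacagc
Klf4: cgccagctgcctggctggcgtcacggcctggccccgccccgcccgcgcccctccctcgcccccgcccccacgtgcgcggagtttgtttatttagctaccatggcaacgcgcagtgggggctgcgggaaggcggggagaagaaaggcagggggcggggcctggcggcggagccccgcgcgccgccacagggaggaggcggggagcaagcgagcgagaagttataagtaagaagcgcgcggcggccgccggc
The Klf2 window held the MEF2 letters, which read the same on both strands, and 1 KLF match on the minus strand. The Klf4 window held 0 matches to the 6 motifs. The GC content was 71.2% for Klf2 and 74.0% for Klf4, against a median of 52.4% over all windows. Mef2a, which encodes a MEF2 protein, rose by 0.37 (adjusted p = 0.0115). Mef2d gave 0.27 (adjusted p = 0.0707) and Mef2c 0.16 (adjusted p = 0.0811), neither passing. The part of MEF2 proteins in the Klf2 and Klf4 levels was not tested.

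**Figure D3:**
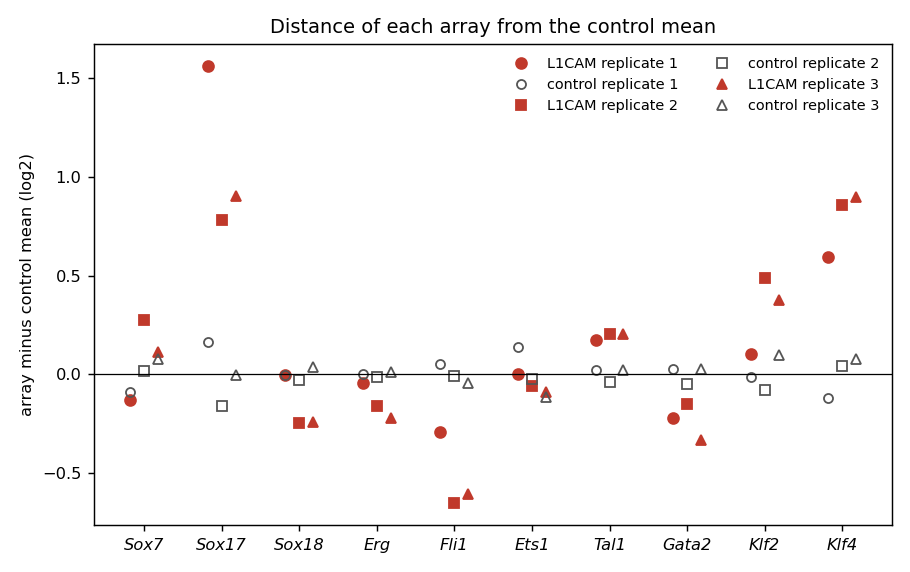
Distance of each array from the control mean (log2, vertical axis) for the 10 factors, with L1CAM arrays filled red and control arrays open grey. L1CAM replicate 1 lies nearest to the control mean of the L1CAM arrays for 7 factors and farthest for Sox17, at 1.56 against 0.78 and 0.90. Of all genes, dim genes included, 46.9% were nearest and 28.6% farthest on that array.

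The factors differed in how they behaved on L1CAM replicate 1. Of the 10, 7 were nearest to the control mean on that array among the L1CAM arrays, and so were 46.9% of all genes, dim genes included. For Fli1 that array lay at -0.29 from the control mean, against -0.65 and -0.61 on L1CAM replicates 2 and 3, and for Klf2 at 0.10 against 0.49 and 0.37. Sox17 was the only factor for which that array lay farthest, as it did for 28.6% of all genes. Without that array the differences were 0.84 for Sox17 (adjusted p = 0.000493) and 0.88 for Klf4 (9.75e-05). They were 0.20 for Tal1 (adjusted p = 0.0321), 0.19 for Sox7 (0.110) and -0.07 for Ets1 (0.577). Those of Sox18 (-0.25, adjusted p = 0.0145) and Gata2 (-0.24, 0.0405) were negative and passed. Proliferation genes were also nearest to the controls on that array, as given above, and their part in these values was not tested. For 8 of the 10 factors the SD was larger among L1CAM than among control arrays, as for 60.6% of all genes. The exceptions were Ets1 and Tal1.

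Relatives of the factors were examined as whole families. Over all genes tested, dim genes included, 6.85% were called higher and 8.19% lower. Of 22 other ETS genes measured, 4 fell and 0 rose, with a median difference of -0.03. Etv1 and Etv5, of the PEA3 group downstream of growth factor signalling, fell by 0.96 (adjusted p = 0.000805) and 0.46 (0.0200). Etv4, of the same group, went the other way without passing (0.16, adjusted p = 0.143), at a level below the array median. Etv6, a repressor, fell by 0.50 (0.00366), and Spib, known from lymphoid cells, gave -0.22 at a level below the array median. Etv2, the embryonic inducer of endothelium, read 6.40 to 6.53 and differed by -0.002 (adjusted p = 0.988). Of 15 other Krüppel-like factors 3 rose and 1 fell (median 0.09). Klf6 rose by 0.56 (0.0472), Klf8 by 0.35 and Klf7 by 0.26, and Klf9, a glucocorticoid-induced member, fell by 0.40. Without L1CAM replicate 1, 6 of the 15 rose and 1 fell, and without control replicates 1 or 2 or L1CAM replicates 2 or 3 none was called. Of the 4 ETS falls 2 were left without control replicate 1 or 3 or L1CAM replicate 2 or 3. Leaving out any array kept the calls of Etv1 and Etv6.

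Of 16 other SOX genes limma called 0, with 1 at an unadjusted p under 0.05, and the ordinary linear model also called 0. Array weights, the filter on dim probe sets and the trend and robust prior each called 1 of them higher. The smallest p-values were those of Sox13 (0.21, adjusted p = 0.0507) and Sox10 (0.17, adjusted p = 0.193). Of 5 other GATA genes Gata6 fell by 1.00 (adjusted p = 0.00327). It read 8.01, 8.33 and 8.50 in control cells and 7.42, 7.27 and 7.16 in L1CAM cells. Its call held whichever array was left out, but was lost with the ordinary linear model. Gata3 gave 0.35 (adjusted p = 0.0549). None of the 5 was called higher, but 2 were without L1CAM replicate 1 and with array weights, and 1 with the trend and robust prior.

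Among 18 genes whose proteins join or restrain the TAL1 and GATA2 complex, 4 rose and 1 fell. Lyl1, the closest relative of Tal1, fell by 0.49 (adjusted p = 0.0232). Runx1, a regulator of blood formation from endothelium, rose by 0.75 (0.0229) and Zfpm2, the GATA cofactor FOG2, by 0.73 (0.000536). Lmo4 rose by 0.59 and Id4, an inhibitor of basic helix-loop-helix factors, by 0.27. Id4 lay below the array median in control cells (mean 6.52). Lmo2, the bridge of the complex, read 11.65, 11.59 and 11.59 in control cells and 11.91, 11.28 and 11.22 in L1CAM cells. L1CAM replicate 1 lay above the controls and the other L1CAM arrays below them, so its difference of -0.14 did not pass (adjusted p = 0.652). Without control replicate 3 or L1CAM replicate 2 or 3 a single rise was left, and without control replicate 1 or 2 there were 2. Without L1CAM replicate 1, 3 of these genes fell, and without any other single array none did. Zfpm2 was the one of the 5 called genes to keep its call whichever array was left out. Of 23 further endothelial factors Hlx (0.37), Mef2a (0.37) and Zeb1 (0.26) rose and Meis2 fell by 0.52, with 19 not called. Without L1CAM replicate 1, 7 of these rose and 4 fell, and without control replicate 2 or 3 or L1CAM replicate 3 a single gene rose.

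**Figure D4:**
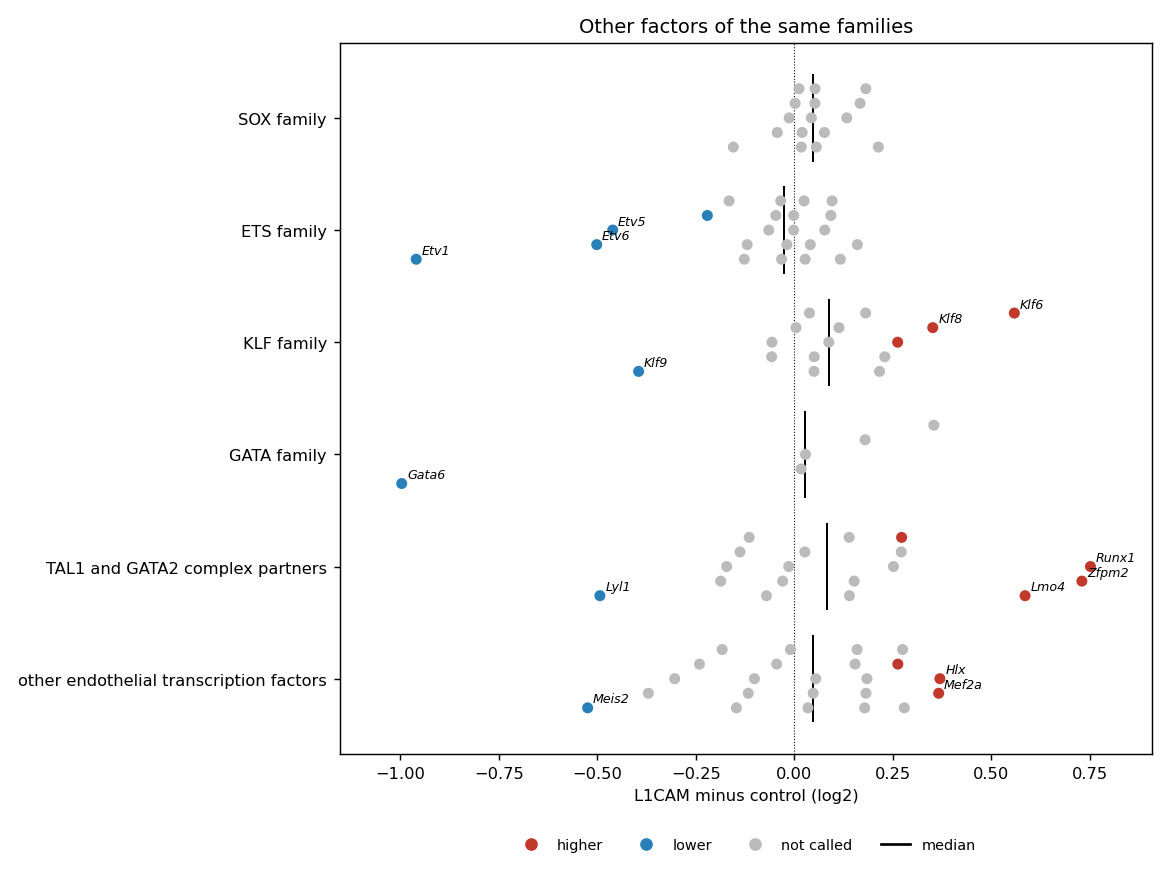
Difference of each measured gene, L1CAM minus control (log2, horizontal axis), in the families of the factors and among other endothelial factors, the 10 factors themselves left out. Red points rose, blue points fell, grey points were not called, and black bars are medians, which lie between -0.03 and 0.09. Called genes beyond 0.35 in either direction are named.

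Genes known as targets of the factors were taken from lists that mix activated and repressed genes. Their counts, too, stand beside 6.85% called higher and 8.19% lower over all genes, dim genes included. Of 22 ERG and FLI1 targets 6 fell and 2 rose, with a median of -0.07. Clec14a, an endothelial surface lectin, fell by 1.51 (SE 0.26, adjusted p = 0.0104), from a mean of 10.07 to 8.56. It read 9.27 on L1CAM replicate 1 and 8.16 and 8.24 on replicates 2 and 3. It thus lay nearest the controls on replicate 1, as did Fli1 and 46.9% of all genes. The VEGF receptor Flt1 fell by 0.82, the matrix protein Mmrn2 by 0.65 and the deacetylase Hdac6 by 0.33. The tight junction gene Cldn5 fell by 0.22, at a level little above the array median (means 7.08 in control and 6.86 in L1CAM cells). Robo4 rose by 0.44 and Nos3 by 0.25. Cdh5 (-0.08, adjusted p = 0.368), Pecam1 (-0.07, 0.411), Tek (-0.08, 0.365) and Kdr (0.01, 0.951) did not pass. Without control replicate 2 none of the 22 was called, and without control replicate 3 there were 1 fall and 1 rise. Without control replicate 1 or L1CAM replicate 2 or 3 there were 2 falls and 1 rise.

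Of 12 SOXF targets 4 rose and 1 fell (median -0.04). Dll4, a Notch ligand of arterial and tip cells, read 10.38, 10.32 and 10.44 in control cells and 10.79, 11.16 and 11.06 in L1CAM cells, and rose by 0.63 (SE 0.10, adjusted p = 0.00621). Its L1CAM arrays all lay above the controls, with L1CAM replicate 1 the lowest of them, unlike Sox17. Robo4 (0.44), Vcam1 (0.41) and Efnb2 (0.34) also rose, and Cldn5 fell. The fall of Cldn5 was called without L1CAM replicate 1, where 2 targets fell, and lost without any other single array. The rise of Efnb2 was lost without any 1 of the control arrays and without L1CAM replicate 2. Efnb2, an arterial ephrin, was highest on L1CAM replicate 1 (11.10, against 10.92 and 10.84), and so was Sox17. Of all genes, 28.6% lay farthest from the control mean on that array. Robo4 (10.29, against 10.57 and 10.42) and Vcam1 (6.32, against 6.41 and 6.35) were, like Dll4, lowest there among the L1CAM arrays. Gja4, an arterial connexin named here after its values were seen, read 9.01 on that array and 7.37 and 7.23 on the other L1CAM arrays, against 8.33 to 8.73 in control cells (adjusted p = 0.353). Of the 4 rises 2 were left without control replicate 2. Leaving out any array kept the calls of Dll4 and Vcam1, and Vcam1 lay below the array median. The ordinary linear model lost the call of Dll4.

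Of 15 KLF2 and KLF4 targets measured 4 rose and 0 fell, with a median of 0.21. Thbd, thrombomodulin, an anticoagulant receptor that both factors induce, read 11.53, 11.37 and 11.45 in control cells and 11.93, 12.13 and 12.15 in L1CAM cells. It rose by 0.62 (SE 0.08, adjusted p = 0.00328) and kept its call whichever array was left out, though not with the ordinary linear model. Hmox1, heme oxygenase, rose by 0.54 (0.00929) and Nos3, endothelial nitric oxide synthase, by 0.25 (0.0442). Vcam1, an adhesion molecule that both factors are known to repress, rose as well (0.41). Aqp1, named after its values were seen, gave 1.13 without passing (adjusted p = 0.0676), at 9.95 on L1CAM replicate 1 against 8.55 and 8.63. Without control replicate 3 there were 2 rises, and without L1CAM replicate 1 there were 6 and 1 fall. Of 10 genes upstream of KLF2 and KLF4 limma called 0, with 1 at an unadjusted p under 0.05, and the ordinary linear model called 0. Without L1CAM replicate 1 there was 1 fall, and with array weights there were 2. Piezo1, a mechanosensitive channel, gave -0.20 (adjusted p = 0.133) and Hdac7 -0.20 (0.186). Mapk7, which encodes ERK5, differed by -0.002 (adjusted p = 0.988).

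Of 12 GATA2 and TAL1 targets 1 rose and 1 fell (median -0.03). Nos3 rose and Nrp1, a co-receptor of VEGF, fell by 0.38 (adjusted p = 0.00843). The call of Nrp1 was kept whichever array was left out and lost with the ordinary linear model. The rise of Nos3 was called without L1CAM replicate 1 and lost without any other single array, with the replicate block and with the ordinary linear model. Of 207 other genes on all lists together 17 rose and 23 fell, 8 of the falls being proliferation genes. These numbers were 30 and 33 without L1CAM replicate 1, and 7 to 9 and 6 to 8 without any other array. The 17 lists share members, so their counts are not independent of one another.

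**Figure D5:**
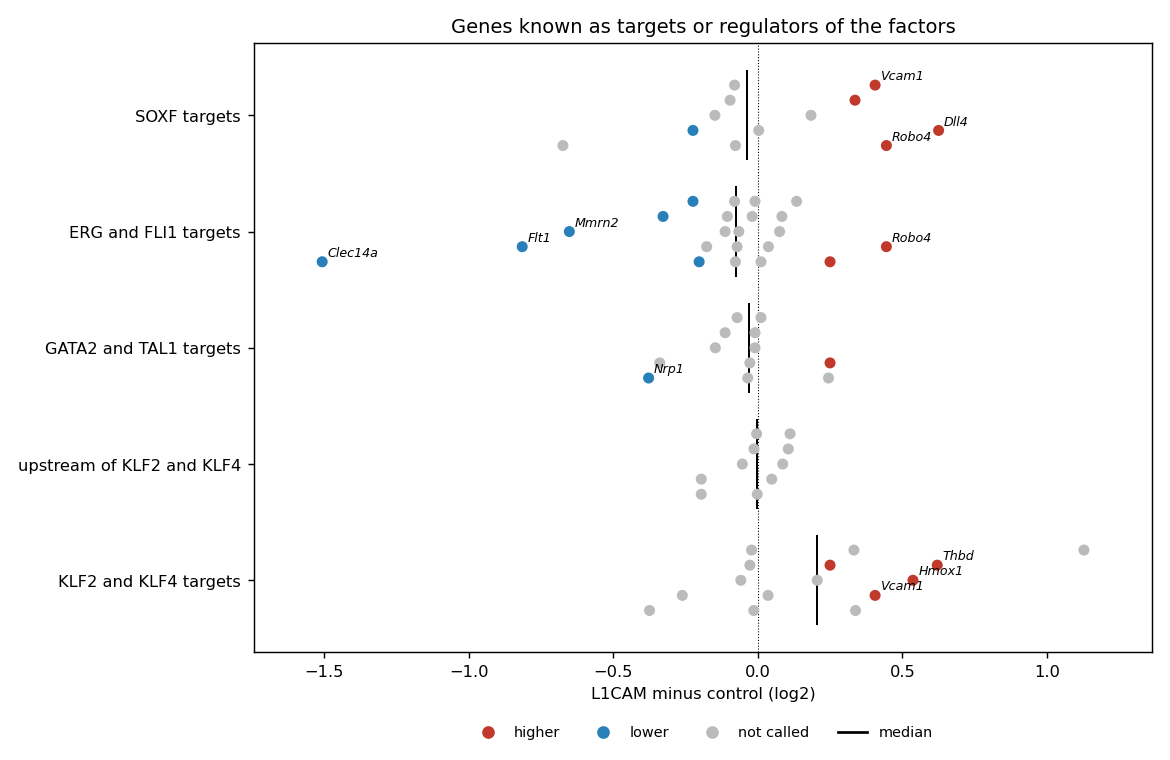
Difference of each measured gene, L1CAM minus control (log2, horizontal axis), among genes known as targets of the factors or as regulators of KLF2 and KLF4. Red points rose, blue points fell, grey points were not called and black bars are medians, the highest being 0.21 for the KLF2 and KLF4 targets. Called genes beyond 0.35 in either direction are named.

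The genes most like each called factor were taken as the 3 with the highest Pearson correlation over the 6 arrays, among 11304 genes with a mean above the array median. The 6 arrays share the 2 groups, so any gene that differs between them in the same way scores high, and the values are a description. Klf4 was matched most closely by P2rx3 (r = 0.9999), Dync2h1 (0.998) and Cd44 (0.997), and Cd44, a hyaluronan receptor, rose by 1.11. Fli1 was matched by Elmod3, Spin1 and Tmem63a (0.999 to 0.998), and Sox17 by Atg10 (0.998), Grb10 and Mfhas1 (both 0.995). Tal1 was matched by Vars, a tRNA synthetase (0.999), Lysmd2 and Ankrd11, and Gata2 by Atg2a, Col4a2 and Mtss2 (0.998 to 0.997). Atg2a (-0.16, limma adjusted p = 0.111) and Col4a2 (-0.10, 0.248) were themselves not called. No other of the 10 factors was among the 3 closest genes of a called factor.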

How the data were processed

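The deposited log2 values per probe set came from the authors' run of Affymetrix Expression Console 1.1 with its RMA method, as the submitters' processing notes list it. This method corrects background, normalizes between arrays and summarises probes. The genome build of the design and the further settings are not given in the sources used. Of 35512 probe sets, 21789 had 1 gene symbol, 1621 several and 12102 were not listed in the platform annotation. Per gene the probe set with the highest mean was kept, giving 19938 genes. Detection calls were not used, and the number of arrays limits the precision.

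L1CAM and control arrays were compared with lmFit and eBayes of limma 3.58.1 (R 4.3.3), group being the only term, two-sided, with Benjamini-Hochberg adjustment over all genes at 0.05. SE is moderated and the 95% intervals are limma's. The procedure was tested on simulated data. Figures were drawn with Python 3.11.15 and matplotlib 3.10.9. The alternatives were scaling, a dim filter, other probe set rules, other priors, array weights, the replicate number as a block, and each array left out. The members and lists were chosen with earlier results of these data known. Named were the 10 factors, L1cam, up to 4 called genes per list and direction or the 2 with the smallest p, and 3 similar genes per called factor. Other genes named, Cdh5, Pecam1, Tek, Kdr, Cd68, Etv2, Lmo2, Mapk7, Mef2c, Gata3, Aqp1 and Gja4 among them, were chosen as examples with their values known.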

Additional observations from a re-analysis of the deposited data

How the results depend on the processing

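Of 150 alternative values for the 10 factors, 119 kept their direction and side of the threshold, 23 lost the call, 6 gained it and 2 changed sign. Each factor has 1 probe set, so the other probe set rules could not change its difference. The dim filter, the trend and robust prior, the ordinary linear model and the replicate block left it unchanged as well. Under these settings the direction was fixed in advance, and only the call could change. Both sign changes came from uncalled genes with 1 array left out (Sox7 -0.0088, Ets1 0.022), so no scaling turned a direction. The number of genes called was 2999, 581 with the ordinary linear model, 5191 with array weights and 1033 to 4952 with 1 array left out. Factors called higher numbered 1 with the ordinary linear model and 1 to 4 with 1 array left out. Factors called lower numbered 1 after quantile normalization, 1 with the replicate block, 0 with the ordinary linear model, 4 with array weights and 0 to 4 with 1 array left out. The ordinary linear model, at unchanged differences, lost Sox17 (1.08, adjusted p = 0.112), Fli1 (-0.52, 0.102), Gata2 (-0.24, 0.116) and Klf4 (0.78, 0.0578). The replicate block lost Tal1 (0.19, 0.103) and Gata2 (-0.24, 0.101). The trend and robust prior lost Tal1 (0.19, 0.0563), and quantile normalization lost Gata2 (-0.23, 0.0503). Array weights added Sox18 (-0.22), Erg (-0.19) and Klf2 (0.38), as did leaving out L1CAM replicate 1. With 1 array left out the differences ran from -0.01 to 0.19 for Sox7, 0.84 to 1.23 for Sox17, -0.25 to -0.12 for Sox18, -0.19 to -0.10 for Erg, -0.63 to -0.45 for Fli1, -0.11 to 0.02 for Ets1, 0.17 to 0.20 for Tal1, -0.28 to -0.19 for Gata2, 0.24 to 0.43 for Klf2 and 0.72 to 0.88 for Klf4. Same-numbered arrays of both groups did not deviate together (correlations -0.10, -0.10 and -0.03 across genes), so the replicate number was not taken to pair them. The causes of these changes were not tested.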
